A study of Rattus norvegicus with 48 samples.

Results

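The genes described are the transcription factor Nrf2, its relatives and the proteins that hold it in check, followed in primary rat cortical cultures. They were taken from the deposited table by symbol, and all 10 were found among its 30211 genes. They are Nfe2l2 (which encodes Nrf2), Nfe2l1, Keap1, Bach1, Bach2, Maff, Mafg, Mafk, Sqstm1 and Cul3, and all 10 passed the filter on low values that left 15890 genes to be tested. The mixed neuronal cultures came from 18-day-old fetuses of Sprague-Dawley rats, were treated from day 21 in vitro, and gave 48 RNA-seq libraries in 16 groups of 3. Cultures were left untreated (Control) or received cocaine at 25 µM for 24 h (Cocaine), the HIV-1 transactivator protein (residues 1 to 86) at 6 ng/mL for 48 h (Tat), or both (Tat-Cocaine). The other 12 groups received 1 of 4 small molecules, given with the 48 h step, alone, with Tat, or with Tat and cocaine. These were 4OI (4-octyl itaconate, a cell-permeable ester of itaconate) at 250 µM, Amlexanox at 25 µM, Tazemetostat at 3 µM and Senicapoc at 1 µM. The stock of 4OI was in DMSO, and whether Control cultures received the solvent is not given in the sources used here. Nothing in the labels ties a library to an animal or a separate preparation, so p-values measure the spread between these libraries, which may be technical in part.

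Nrf2 is a basic leucine zipper factor of the cap'n'collar family. In resting cells Keap1 binds it and presents it to a ubiquitin ligase built on Cul3, and Nrf2 is degraded. Electrophiles and oxidants modify cysteines of Keap1, and Nrf2 then accumulates, pairs with a small Maf protein (Maff, Mafg or Mafk) and binds antioxidant response elements near genes for glutathione synthesis, quinone reduction and haem breakdown. Bach1 and Bach2 pair with the same small Maf proteins and repress such genes, and Nfe2l1 is a relative best known for raising proteasome genes. Sqstm1 (p62) is an autophagy receptor that binds Keap1. Since Nrf2 is controlled largely as a protein, the RNA of these genes is only one layer of the pathway. Sqstm1 and Mafg are known Nrf2 targets themselves.

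The promoters of 9 of the 10 genes were matched by symbol in a RefSeq table of build GRCr8, which holds 250 bases before and 50 after each annotated start. That build is not the one the reads were aligned to. The antioxidant response element core, TGACNNNGC, was searched on both strands and was found in 12.1% of all 33469 promoters of that length. Among the 11 promoters of these genes (Nfe2l1 has 3 in the table) it was found in 2, those of Mafk and Nfe2l2. In Nfe2l2 the match, TGACGCCGC, lies past the start, at bases 39 to 47. The AP-1 site TGANTCA was found in 7.33% of all promoters and here in Bach1, as TGAGTCA at bases 30 to 36 past the start. The cyclic AMP response element TGACGTCA was found in 1.83% of all promoters and here in Maff, 51 to 44 bases before the start. No match overlapped another. The 120 bases before the start are shown for the 3 genes that rose with 4OI (Sqstm1, Keap1 and Mafg), for Maff, which rose most with Tat, and for Mafk, the small Maf gene with the element core. Capitals mark a match to one of these motifs, read on the minus strand of the gene for Mafk.
Sqstm1, chr10:35037751-35037870, minus strand: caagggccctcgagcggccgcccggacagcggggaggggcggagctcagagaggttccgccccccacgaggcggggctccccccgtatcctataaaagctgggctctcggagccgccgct
Keap1, chr8:28054043-28054162, minus strand: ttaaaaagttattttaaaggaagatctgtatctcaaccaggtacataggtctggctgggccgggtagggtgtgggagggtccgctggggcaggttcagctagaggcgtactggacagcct
Mafg, chr10:106410133-106410252, minus strand: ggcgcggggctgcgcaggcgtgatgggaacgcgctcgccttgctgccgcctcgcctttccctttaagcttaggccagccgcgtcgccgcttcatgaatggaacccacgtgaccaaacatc
Maff, chr7:112792667-112792786, plus strand: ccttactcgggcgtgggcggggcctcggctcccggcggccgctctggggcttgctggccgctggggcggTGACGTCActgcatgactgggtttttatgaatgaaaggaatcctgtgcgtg
Mafk, chr12:19959193-19959312, minus strand: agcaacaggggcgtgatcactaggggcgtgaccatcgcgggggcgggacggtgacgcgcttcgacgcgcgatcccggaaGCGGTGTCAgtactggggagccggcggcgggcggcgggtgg
In these windows Sqstm1, Keap1 and Mafg held none of the 3 letter patterns, which says nothing of sites elsewhere.

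Depth was read off from the value that 1 read takes in each library, and lay between 17.5 and 29.1 M reads on genes (median 22.4 M). Values are CPM (reads of a gene relative to the total of its library, after the authors' scaling), and at 0.5 CPM a gene had 8.58 to 15 reads. The lowest member, Bach2, had 86.0 to 218 reads per library and the highest, Sqstm1, 10066 to 32827. The label of the cells is neuron, but astrocyte, microglia and oligodendrocyte lineage markers were present in every library beside neuron markers, while the vessel marker Cldn5 was listed at 0 in 25 libraries. Oligodendrocyte lineage markers summed to 489 to 2854 CPM in 47 libraries and to 25922 CPM in 1 of Cocaine (replicate 3). Libraries of a group correlated at 0.963 to 0.996 on the log2 scale over 48 pairs.

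The per-library values show 3 patterns among the 10 genes: Sqstm1, Keap1 and Mafg stood high wherever 4OI was given, Maff and Nfe2l2 stood high with Tat, and the other 5 showed smaller or less even differences. On the log2 scale the group means of Maff spanned 2.36, those of Sqstm1 1.27, of Nfe2l2 0.93, of Bach2 0.82, of Mafg 0.78, of Keap1 0.59 and of Mafk 0.58. Bach1 spanned 0.46, Nfe2l1 0.41 and Cul3, the least variable, 0.31. The spread within groups was 0.079 (SD, log2) for Cul3 and 0.095 to 0.19 for 8 others. Maff was far noisier, at 0.58.

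**Figure D1:**
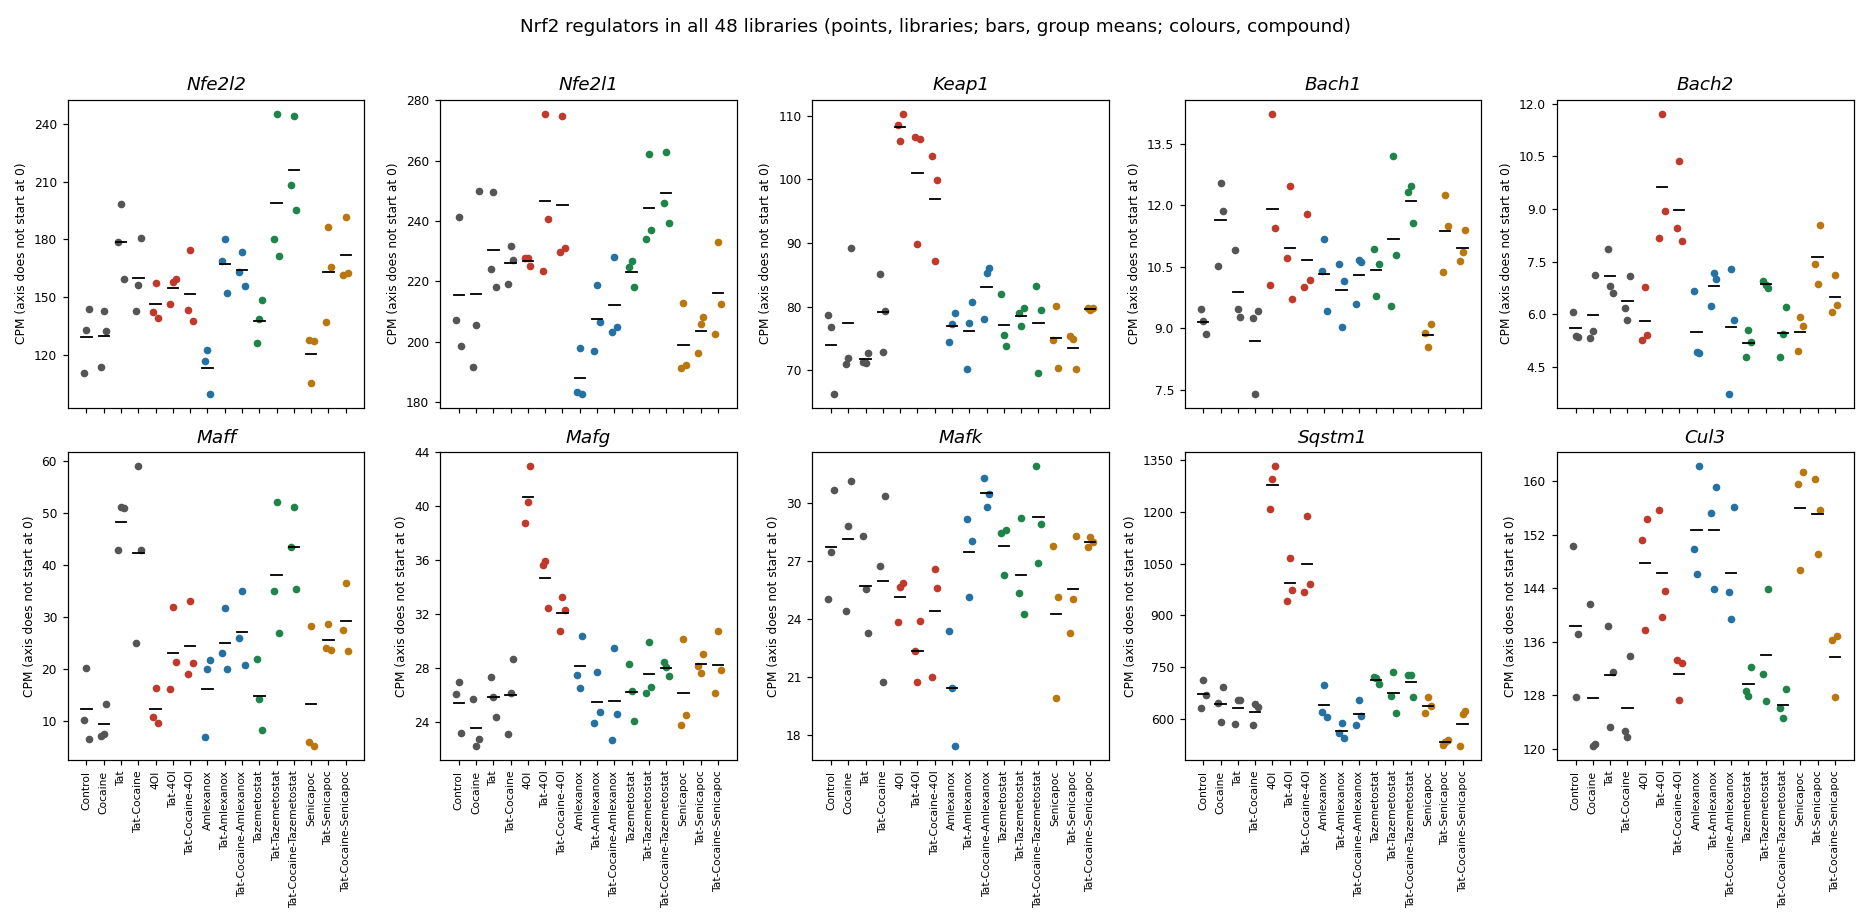
CPM of the 10 genes in each of the 48 libraries (points, 3 per group) with the group mean (bar). Each panel is 1 gene with its own linear axis that does not start at 0, the x axis lists the 16 groups, and colour gives the compound (grey for none). Sqstm1 lies at 941 CPM or above in the 9 libraries with 4OI and at 737 CPM or below in the other 39.

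4OI raised Sqstm1, Keap1 and Mafg in untreated, Tat-treated and Tat-Cocaine-treated cultures, and no other member passed the test in any of these 3 comparisons. Sqstm1 read 631, 714 and 670 CPM in Control and 1209, 1296 and 1334 CPM with 4OI. With Tat it read 584, 655 and 654 CPM, and with Tat-4OI 941, 1066 and 973 CPM. With Tat-Cocaine it read 582, 642 and 635 CPM, and with Tat-Cocaine-4OI 969, 1190 and 991 CPM. In each background the 3 libraries with 4OI lay above the 3 without it, and the lowest of the 9 libraries with 4OI lay above all 39 others. The log2 fold change was 0.93 (SE 0.084, adjusted p = 6.4e-10) alone, 0.65 (adjusted p = 1.2e-06) on Tat and 0.75 (adjusted p = 8.9e-08) on Tat-Cocaine. The last comparison stood at an adjusted p of 0.060 where only its own 6 libraries were fitted.

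Keap1, the adaptor that holds Nrf2, read 78.7, 76.8 and 66.3 CPM in Control and 109, 106 and 110 CPM with 4OI. It read 71.3, 71.1 and 72.8 CPM with Tat against 107, 89.8 and 106 CPM with Tat-4OI. With Tat-Cocaine it read 85.1, 72.8 and 79.3 CPM, and with Tat-Cocaine-4OI 104, 87.2 and 100 CPM. The groups did not overlap in any background, and 8 of the 9 libraries with 4OI exceeded all 39 others. The log2 fold change was 0.55 (SE 0.083, adjusted p = 2.7e-05) alone, 0.49 (adjusted p = 0.00011) on Tat and 0.29 (adjusted p = 0.026) on Tat-Cocaine. The value alone had an adjusted p of 0.055 in the fit to its own 6 libraries.

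Mafg, the small Maf gene among the known Nrf2 targets, read 26.1, 27 and 23.2 CPM in Control and 38.8, 40.3 and 43 CPM with 4OI. It read 27.3, 25.8 and 24.3 CPM with Tat and 35.6, 35.9 and 32.5 CPM with Tat-4OI. With Tat-Cocaine it read 23.1, 26.2 and 28.7 CPM, and with Tat-Cocaine-4OI 30.7, 33.2 and 32.3 CPM. Here too the groups were apart in each background, and 8 of 9 libraries with 4OI exceeded the 39 others. The log2 fold change was 0.67 (SE 0.095, adjusted p = 1.0e-05) alone, 0.42 (adjusted p = 0.0025) on Tat and 0.30 (adjusted p = 0.044) on Tat-Cocaine. The calls of Keap1 and Mafg on Tat-Cocaine were lost in a fit to the 7 groups without Amlexanox, Tazemetostat or Senicapoc (adjusted p = 0.12 and 0.077) and in the fit to the 6 libraries compared (adjusted p = 0.27 and 0.29). That of Mafg was also lost with no filter (0.056) and with median ratio scaling (0.063). Leaving out 1 library there ended the call of Keap1 in 4 of 6 fits (adjusted p up to 0.15; kept without Tat-Cocaine replicate 1 or Tat-Cocaine-4OI replicate 2) and that of Mafg in 5 of 6 (up to 0.26; kept without Tat-Cocaine replicate 3).

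Of all genes tested, 3.15% passed the test for 4OI alone, 15.6% on Tat and 7.36% on Tat-Cocaine, beside 3 of the 10 members each time. Averaged over the 3 backgrounds, with 9 libraries on either side, 5 of the 10 members rose and 22.8% of all genes passed. Sqstm1 rose by 0.78 (SE 0.048, adjusted p = 8.9e-15), Mafg by 0.46 (adjusted p = 6.0e-08) and Keap1 by 0.44 (adjusted p = 1.0e-08), all as log2. The repressor genes Bach1 and Bach2 rose as well, by 0.26 (SE 0.066, adjusted p = 0.0041) and 0.30 (SE 0.091, adjusted p = 0.014). The median log2 fold change over the 10 members was 0.18, against 0.01 over all genes tested.

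Bach2, best known from B cells, was called with 4OI in the average over backgrounds and in no single background. It read 6.06, 5.39 and 5.36 CPM in Control and 5.27, 6.77 and 5.42 CPM with 4OI, and these overlapped. It read 7.86, 6.81 and 6.62 CPM with Tat against 8.19, 11.7 and 8.95 CPM with Tat-4OI. With Tat-Cocaine it read 6.17, 5.85 and 7.09 CPM, and with Tat-Cocaine-4OI 8.47, 10.4 and 8.08 CPM. The groups with Tat did not overlap, but the log2 differences of 0.40 and 0.46 missed the threshold (adjusted p = 0.075 and 0.068), and the difference of the 4OI effect with and without Tat was not called (adjusted p = 0.51). Bach1, the haem-sensing repressor, read 9.47, 9.17 and 8.85 CPM in Control and 10.1, 14.2 and 11.4 CPM with 4OI, which did not overlap (adjusted p = 0.10). It read 10.9, 9.47 and 9.27 CPM with Tat, 10.7, 12.5 and 9.71 CPM with Tat-4OI, 9.24, 7.41 and 9.42 CPM with Tat-Cocaine, and 10.0, 11.8 and 10.2 CPM with Tat-Cocaine-4OI.

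Nfe2l2 itself was not called with 4OI. Its libraries read 111, 133 and 144 CPM in Control and 142, 158 and 139 CPM with 4OI, a log2 difference of 0.19 (95% confidence interval -0.08 to 0.45). It read 179, 199 and 159 CPM with Tat and 146, 158 and 159 CPM with Tat-4OI. The difference on Tat was -0.21 (-0.47 to 0.06, adjusted p = 0.28), and over the 3 backgrounds it was -0.03 (-0.18 to 0.12). The libraries with Tat-4OI lay just below those with Tat. Maff read 42.8, 51.2 and 51.0 CPM with Tat and 16.2, 31.9 and 21.3 CPM with Tat-4OI, with no overlap, but the log2 difference of -1.10 (-2.02 to -0.18) missed the threshold (adjusted p = 0.092). Maff was called there with the replicate number as a block over all 48 libraries, a setting that does not pair the 2 groups.

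The genes on which these regulators act were described from lists written from textbook knowledge. Earlier results of these data were known when the lists were chosen, so their counts are a description and no independent test. Of 22 Nrf2 target genes tested, 17 rose with 4OI alone, 17 on Tat, 20 on Tat-Cocaine and 20 over the 3 backgrounds. Of all genes, 3.15%, 15.6%, 7.36% and 22.8% passed in the same order, in either direction. Their median log2 fold change was 0.87 over the backgrounds, against 0.01 over all genes. Those with the largest pooled change were the cystine transporter Slc7a11 (log2 fold change 3.01, SE 0.18), the haem oxygenase Hmox1 (2.53, SE 0.13) and the glutathione synthesis gene Gclm (2.24, SE 0.095). Of 17 other regulators of the pathway 1 rose and 2 fell: Cand1, which exchanges cullin adaptors, rose by 0.19 (SE 0.041), the chromatin remodeller Chd6 fell by 0.25 (SE 0.040) and the ligase subunit Rbx1 fell by 0.19 (SE 0.067). Of 5 other cap'n'collar and Maf factors tested, 2 fell, among them the large Maf gene Maf by 0.63 (SE 0.135). Of 9 autophagy receptors and Atg8 proteins, 3 rose and 1 fell, with Gabarapl1 at 0.44 (SE 0.077) and Map1lc3a at 0.17 (SE 0.051) higher and Optn at -0.26 (SE 0.084). Of 6 other cullins 1 rose, and of 13 core proteasome subunits 1 fell. These counts over the backgrounds stand beside the 22.8% of all genes that passed. The shares of the other regulators, cullins and proteasome subunits do not exceed it.

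Cell type markers moved with 4OI as well. Over the 3 backgrounds, where 22.8% of all genes passed, 10 of 12 microglia and macrophage markers fell and 3 of 8 astrocyte markers rose. Limma called 0 of 10 neuron markers there (0 at an unadjusted p under 0.05). The microglia markers summed to 883 to 1984 CPM with 4OI against 1404 to 2371 in Control, to 667 to 1683 with Tat-4OI against 1860 to 3173 with Tat, and to 445 to 1581 with Tat-Cocaine-4OI against 1334 to 2105 with Tat-Cocaine. None of the 12 was at 0 in any library. In bulk RNA fewer cells of a type and less RNA per cell cannot be told apart, and the part of cell composition in the changes of Sqstm1, Keap1, Mafg, Bach1 and Bach2 was not tested.

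**Figure D2:**
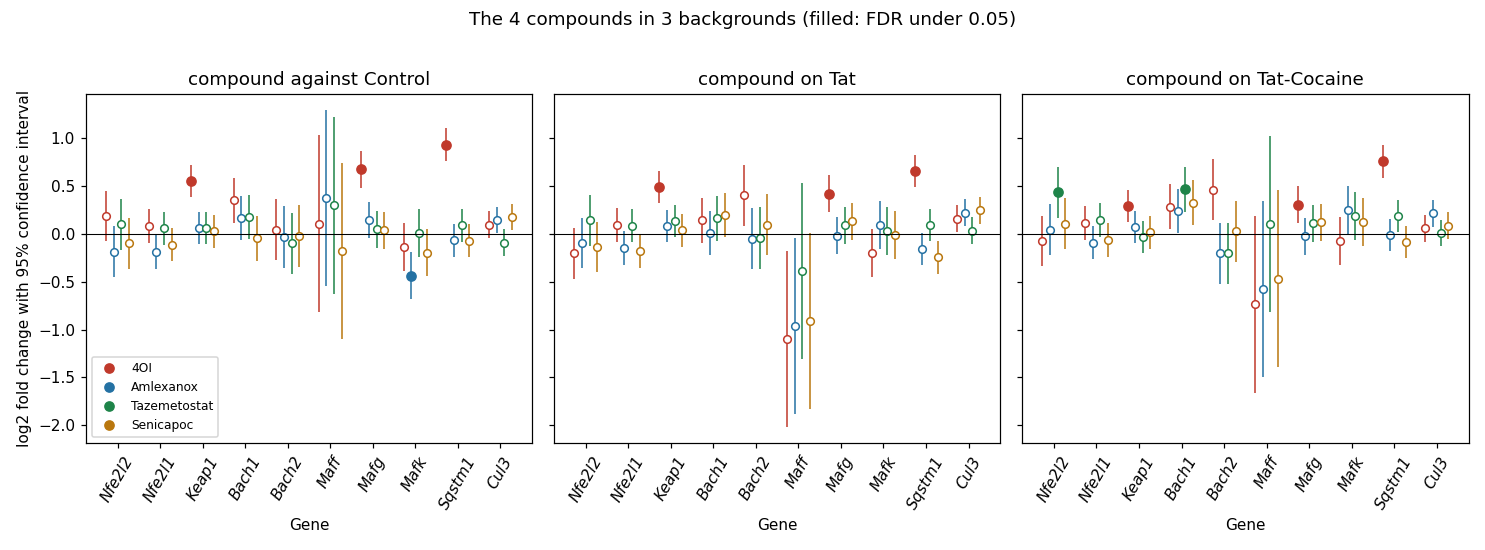
log2 fold change of each gene (x axis) with each of the 4 compounds, against Control, on Tat and on Tat-Cocaine (3 panels), with 95% confidence intervals as bars. Filled points passed the test (limma, FDR under 0.05), and the filled points of Sqstm1, Keap1 and Mafg belong to 4OI in all 3 panels.

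Tat raised Nfe2l2 and Maff, while Keap1 and Cul3, the parts of the ligase that turns Nrf2 over, were not called. Against Control, Nfe2l2 read 179, 199 and 159 CPM with Tat, above all 3 Control libraries (111, 133 and 144 CPM), a log2 fold change of 0.47 (SE 0.13, adjusted p = 0.0084). Leaving out Tat replicate 2 or Control replicate 1 lost this call (highest adjusted p 0.088), and so did the fit to the 6 libraries alone (adjusted p = 0.077). Maff, a small Maf gene known to respond to inflammatory signals, read 10.2, 20.2 and 6.58 CPM in Control and 42.8, 51.2 and 51.0 CPM with Tat. It rose 4.19-fold (log2 2.07, SE 0.45, adjusted p = 0.0011), the largest change among the members in any comparison. These were 2 of 10 members, where 21.3% of all genes passed. With Tat-Cocaine against Control only Maff was called, with 14.9% of all genes, at 24.9, 59.1 and 42.9 CPM and a log2 fold change of 1.80 (SE 0.45, adjusted p = 0.0058). That call was lost without Control replicate 3 (adjusted p = 0.056) and in the fit to the 6 libraries (adjusted p = 0.078). Nfe2l2 at 143, 156 and 181 CPM overlapped Control and had a log2 difference of 0.31 (adjusted p = 0.11). With the replicate number as a block over all 48 libraries, it passed (adjusted p = 0.046). This block gives each number 1 offset across the 16 groups and does not pair the 2 groups compared.

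Averaged over the 5 pairs of groups with and without Tat (no compound and each of the 4 compounds, 15 libraries a side), 5 of 10 members passed, and so did 56.5% of all genes, so that the count itself is near the background. Maff rose by 1.28 (SE 0.20, adjusted p = 3.0e-06), Bach2 by 0.42 (SE 0.070, adjusted p = 7.5e-06), Nfe2l2 by 0.41 (SE 0.058, adjusted p = 4.1e-07) and Nfe2l1 by 0.10 (SE 0.039, adjusted p = 0.023). Sqstm1 fell by 0.20 (SE 0.037, adjusted p = 4.2e-05). Nfe2l1 read 207, 241 and 199 CPM in Control and 224, 250 and 218 CPM with Tat, which overlapped. Its call was lost with median ratio scaling (adjusted p = 0.060) and without Tat-4OI replicate 2 (adjusted p = 0.052). Keap1 differed by -0.03 (95% confidence interval -0.11 to 0.04), Mafg by -0.03 (-0.12 to 0.05), Mafk by 0.03 (-0.08 to 0.14), Cul3 by -0.01 (-0.07 to 0.05) and Bach1 by 0.07 (-0.03 to 0.18).

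The step from no Tat to Tat was also read for each compound, as a description, since no test of a difference between these steps called a member. Nfe2l2 went from a mean of 129 to 179 CPM without compound, from 113 to 167 CPM under Amlexanox, from 138 to 199 CPM under Tazemetostat and from 120 to 163 CPM under Senicapoc, without overlap of the libraries. Under 4OI it read 146 CPM on average without and 155 CPM with Tat, and the libraries overlapped. The 4OI effect with Tat against without gave a log2 difference of -0.39 (-0.77 to -0.02) and an adjusted p of 0.40. Sqstm1 averaged 1280 CPM with 4OI and 993 CPM with Tat-4OI, 641 and 564 CPM with Amlexanox and Tat-Amlexanox, and 638 and 531 CPM with Senicapoc and Tat-Senicapoc, each time without overlap. Without compound it averaged 671 and 631 CPM and with Tazemetostat 712 and 673 CPM, and these overlapped.

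**Figure D3:**
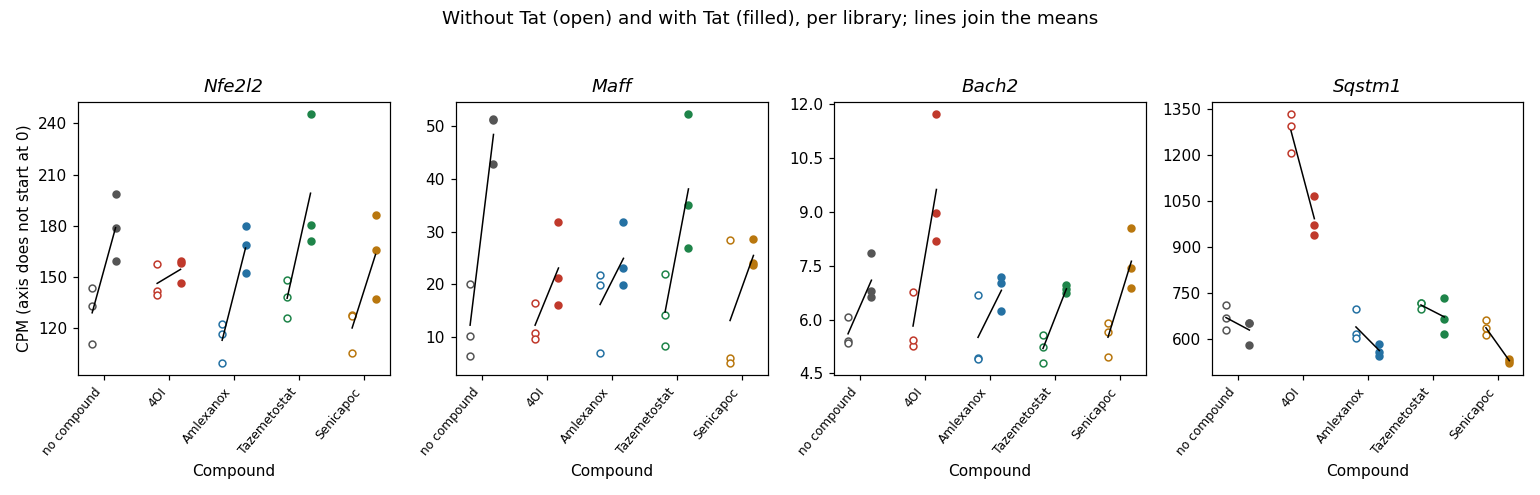
CPM of Nfe2l2, Maff, Bach2 and Sqstm1 (4 panels, linear axes that do not start at 0) in libraries without Tat (open) and with Tat (filled), for no compound and each compound on the x axis. Lines join the means of 3 libraries. The line of Nfe2l2 is flattest under 4OI, from 146 to 155 CPM, and that of Sqstm1 runs from 1280 to 993 CPM there.

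The counts that follow stand beside the 56.5% of all genes that passed in this average. Among the other genes of the pathway, 11 of 22 Nrf2 targets rose and 6 fell with Tat over the 5 pairs. Among those that fell were Osgin1 (-0.61, SE 0.090) and the epoxide hydrolase Ephx1 (-0.59, SE 0.080). Their median log2 fold change was 0.09, against -0.00 over all genes. Of 13 core proteasome subunits, which Nfe2l1 is known to raise, 2 rose and 9 fell. Of the 17 other regulators 8 rose and 2 fell, and of the 9 autophagy genes 2 rose and 3 fell. Beside these, 7 of 12 microglia markers rose, 4 of 8 astrocyte markers fell and 2 rose, and 7 of 10 neuron markers fell. Microglia markers summed to 1404 to 2371 CPM in Control and 1860 to 3173 CPM with Tat, and astrocyte markers to 10452 to 12477 and 7017 to 9392 CPM. The part of these shifts in the changes of Maff, Nfe2l2, Bach2 and Sqstm1 was not tested.

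Few of these genes were called with cocaine. On simulated data the fit recovered 41.6% of 1.5-fold changes between 2 groups of 3 libraries. The changed genes were drawn at random from all those tested, and the share for these 10 genes was not computed. A missing call by itself does not show that a gene was unchanged. Limma called 0 of 10 members with cocaine alone (1 at an unadjusted p under 0.05), where 0.201% of all genes passed, and 0 with cocaine on Tat (0 at an unadjusted p under 0.05), where 0.0189% passed. Of all 15890 genes, 1996 and 1297 had an unadjusted p under 0.05 in these 2 comparisons. Bach1 was the member with the low unadjusted p: it read 10.5, 12.5 and 11.9 CPM with cocaine, above its Control libraries of 9.47, 9.17 and 8.85 CPM, a log2 difference of 0.33 (0.09 to 0.56, adjusted p = 0.21). Without Cocaine replicate 1 it passed the test, so that 1 member was called. Without replicate 3, whose oligodendrocyte markers stood apart, the count stayed at 0. Averaged over 5 pairs of groups with Tat, cocaine lowered Cul3, the scaffold of the Keap1 ligase, by 0.11 on the log2 scale (SE 0.031, adjusted p = 0.026), with 4.55% of all genes passing. Its means were 131 CPM with Tat and 126 CPM with Tat-Cocaine, 146 and 131 CPM under 4OI, 153 and 146 CPM under Amlexanox, 134 and 127 CPM under Tazemetostat, and 155 and 134 CPM under Senicapoc. The call was lost in 6 of the 30 fits without 1 library (adjusted p up to 0.063). In the same comparison 2 of 10 neuron markers fell, Tubb3 by 0.65 (SE 0.12, adjusted p = 0.0016) and Gad1 by 0.62 (SE 0.13, adjusted p = 0.0042), and limma called none of the microglia, astrocyte or oligodendrocyte lineage markers (0, 2 and 0 at an unadjusted p under 0.05). Of all 15890 genes, 3198 had an unadjusted p under 0.05 there. Neuron markers summed to 1151 to 3597 CPM in the groups with Tat and 953 to 2799 CPM in those with Tat and cocaine, with none at 0, and their part in the change of Cul3 was not tested.

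Amlexanox, an inhibitor of the kinases TBK1 and IKKε, lowered Mafk in cultures without Tat. Mafk read 25.0, 27.5 and 30.6 CPM in Control and 23.4, 20.4 and 17.5 CPM with Amlexanox, with no overlap, and fell by 0.44 (SE 0.12, adjusted p = 0.018). It was the only member called there, with 11.4% of all genes, and the call was lost without Control replicate 3 or Amlexanox replicate 3 (adjusted p up to 0.23) and in the fit to the 6 libraries (adjusted p = 0.27). On Tat it read 29.2, 25.1 and 28 CPM with Amlexanox against 28.3, 25.6 and 23.3 CPM without. On Tat-Cocaine it read 31.3, 29.8 and 30.5 CPM against 26.7, 20.8 and 30.3 CPM, a log2 difference of 0.25 (-0.00 to 0.50, adjusted p = 0.29). The effect on Tat-Cocaine differed from that in untreated cultures by 0.68 (SE 0.17, adjusted p = 0.016, with 9.32% of all genes passing), and that on Tat by 0.53 (adjusted p = 0.090, with 1.84% passing). Of the astrocyte markers 5 of 8 fell with Amlexanox alone, and their sum was 5787 to 13606 CPM against 10452 to 12477 in Control. In the test of Amlexanox with Tat-Cocaine against without, 4 of 8 astrocyte markers were called higher. The part of these markers in the values of Mafk was not tested.

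Cul3 stood higher with Amlexanox and with Senicapoc, a blocker of a calcium-activated potassium channel. Control libraries read 150, 128 and 137 CPM, Amlexanox 150, 146 and 162 CPM, and Senicapoc 160, 147 and 161 CPM, so that both compounds overlapped Control. With Tat they read 138, 123 and 131 CPM, with Tat-Amlexanox 155, 144 and 159 CPM and with Tat-Senicapoc 160, 149 and 156 CPM, so that both compounds lay above Tat. With Tat-Cocaine they read 123, 122 and 134 CPM, with Tat-Cocaine-Amlexanox 143, 139 and 156 CPM and with Tat-Cocaine-Senicapoc 136, 128 and 137 CPM. Here Amlexanox lay above Tat-Cocaine, and Senicapoc overlapped it. Over the 3 backgrounds Cul3 rose by 0.19 (SE 0.040, adjusted p = 0.0022) with Amlexanox, where 7.99% of all genes passed, and by 0.17 (SE 0.040, adjusted p = 0.030) with Senicapoc, where 1.16% passed. It was the only member called in either. The call for Senicapoc was lost in 10 of 18 fits without 1 library (adjusted p up to 0.092) and in the fit to its own libraries (adjusted p = 0.076). Of 6 other cullins, 4 rose with Amlexanox over the backgrounds. With 4OI the means of Cul3 also lay higher, though it was not called over the backgrounds. They were 148 against 138 CPM in untreated cultures, 146 against 131 CPM on Tat and 131 against 126 CPM on Tat-Cocaine. The averages for 4OI, Amlexanox, Tazemetostat and Senicapoc all use the same Control, Tat and Tat-Cocaine libraries. In the separate comparisons limma called 0 of 10 members with Amlexanox on Tat (2 at an unadjusted p under 0.05; 0.837% of all genes passed) and 0 on Tat-Cocaine (2; 0.925%). It called 0 with Senicapoc alone (1; 0% of all genes), on Tat (3; 0.409%) and on Tat-Cocaine (1; 0.0441%). Of all 15890 genes, 1988 and 2829 had an unadjusted p under 0.05 for Amlexanox on Tat and on Tat-Cocaine. For Senicapoc alone, on Tat and on Tat-Cocaine, 1378, 2909 and 2466 genes did. For Amlexanox on Tat, Cul3 passed with the replicate number as a block over all 48 libraries (log2 difference 0.22, adjusted p = 0.013). The same block also called Cul3 with Amlexanox on Tat-Cocaine, with 4OI on Tat and with Senicapoc on Tat.

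Tazemetostat, an inhibitor of the histone methyltransferase EZH2, was followed by calls in the presence of Tat and cocaine and in the average over backgrounds. Alone and on Tat limma called 0 of 10 members (0 at an unadjusted p under 0.05 in both), with 0% of all genes passing. Of all 15890 genes, 576 and 851 had an unadjusted p under 0.05 there. On Tat-Cocaine 28.7% of all genes passed, and 2 members rose. Nfe2l2 read 208, 244 and 195 CPM against 143, 156 and 181 CPM with Tat-Cocaine, a log2 fold change of 0.43 (SE 0.13, adjusted p = 0.018). Bach1 read 12.3, 12.5 and 11.6 CPM against 9.24, 7.41 and 9.42 CPM, a log2 fold change of 0.46 (SE 0.11, adjusted p = 0.0082). Neither pair overlapped. The call of Nfe2l2 was lost without Tat-Cocaine replicate 1 or 2 or Tat-Cocaine-Tazemetostat replicate 2 (adjusted p up to 0.12), and that of Bach1 without the last 2 of these (up to 0.062). In the same libraries 5 of 12 microglia markers rose and 9 of 10 neuron markers fell. The microglia markers summed to 3024 to 4793 CPM against 1334 to 2105 CPM, and the neuron markers to 953 to 1469 CPM against 2113 to 2702 CPM, none of them at 0. Their part in the changes of Nfe2l2 and Bach1 was not tested. Over the 3 backgrounds, with 11.4% of all genes passing, Nfe2l2 rose by 0.22 (SE 0.075, adjusted p = 0.049) and Bach1 by 0.27 (SE 0.066, adjusted p = 0.013). In that average 1 of 12 microglia markers rose and 3 of 10 neuron markers fell. The call of Nfe2l2 was lost in 11 of 18 fits without 1 library, and that of Bach1 in 1, without Tat-Tazemetostat replicate 2.

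**Figure D4:**
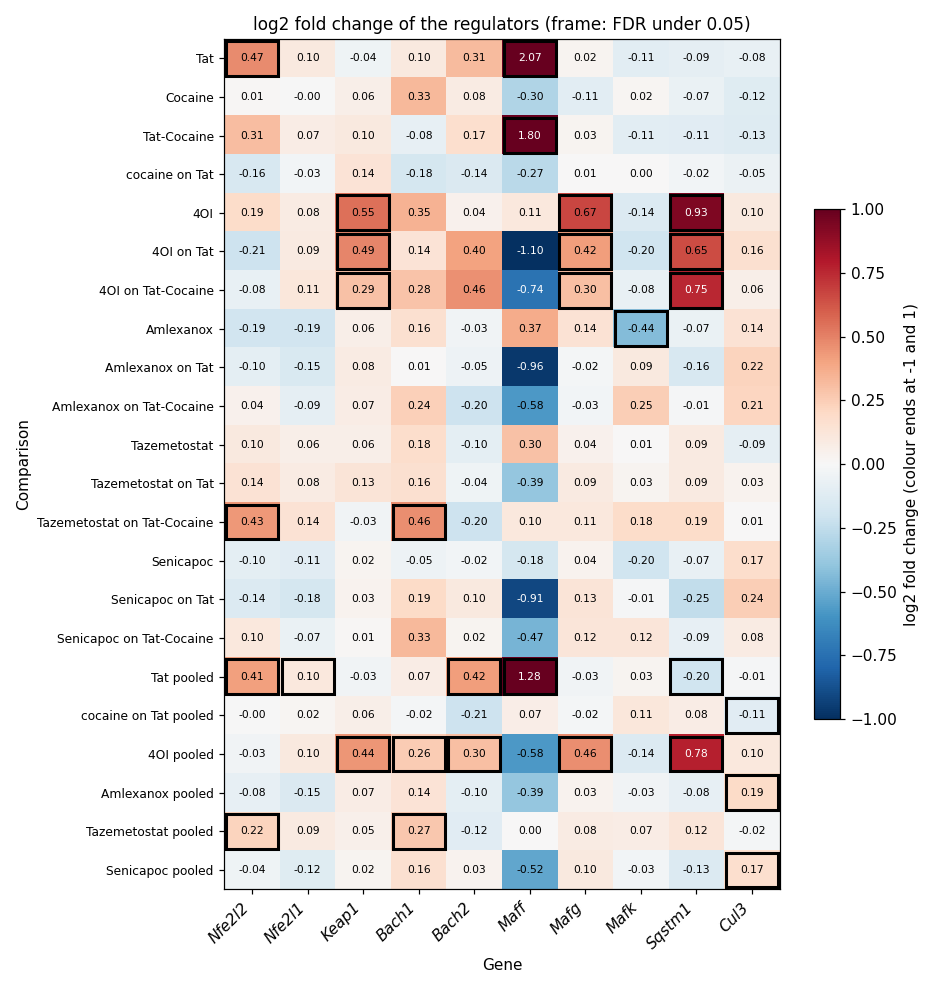
log2 fold changes of the 10 genes (columns) in 22 comparisons (rows: exposures, each compound in each background, and averages over backgrounds). Numbers and colour give the log2 fold change, with colour ending at -1 and 1, and a frame marks FDR under 0.05. The framed 4OI cells are Keap1, Mafg and Sqstm1 in each background, and Tat frames Maff at 2.07 and Nfe2l2 at 0.47.

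Compared directly as averages over the 3 backgrounds, Sqstm1, Keap1, Mafg and Bach2 were higher with 4OI than with each of the other 3 compounds. Bach1 was called against none of them. Over the 3 backgrounds Sqstm1 was higher with 4OI than with Amlexanox by 0.86 (SE 0.048, adjusted p = 7.9e-16), than with Tazemetostat by 0.66 (adjusted p = 9.3e-13) and than with Senicapoc by 0.91 (adjusted p = 1.2e-16). Keap1 was higher by 0.37, 0.39 and 0.42, and Mafg by 0.43, 0.38 and 0.37, in the same order. Bach2 was higher by 0.40, 0.42 and 0.27. Without Tat, however, its libraries with 4OI (5.27, 6.77 and 5.42 CPM) overlapped those of each other compound. These read 6.68, 4.93 and 4.90 CPM with Amlexanox, 4.80, 5.56 and 5.23 CPM with Tazemetostat, and 4.95, 5.92 and 5.66 CPM with Senicapoc. Nfe2l1 was higher with 4OI than with Amlexanox by 0.24 (adjusted p = 0.00040) and than with Senicapoc by 0.21 (adjusted p = 0.0014), and against Tazemetostat it differed by 0.00. Its libraries read 228, 228 and 225 CPM with 4OI, 184, 198 and 183 CPM with Amlexanox, and 191, 213 and 192 CPM with Senicapoc, with 4OI above both. With Tat they read 223, 276 and 241 CPM under 4OI, 197, 219 and 207 CPM under Amlexanox, and 196, 206 and 208 CPM under Senicapoc, and again 4OI was above both. With Tat-Cocaine they read 230, 275 and 231 CPM under 4OI, 203, 228 and 205 CPM under Amlexanox, and 203, 233 and 213 CPM under Senicapoc, where the last overlapped 4OI. Without compound Nfe2l1 averaged 216, 231 and 226 CPM in Control, Tat and Tat-Cocaine, and 227, 247 and 245 CPM with 4OI added. It averaged 188, 208 and 212 CPM with Amlexanox and 199, 203 and 216 CPM with Senicapoc, in the same order. Against the groups without compound Nfe2l1 was not called with 4OI, singly or averaged. The replicate number as a block called it with Amlexanox alone and over the backgrounds. Nfe2l2 was lower with 4OI than with Tazemetostat by -0.25 (SE 0.075, adjusted p = 0.0071), and Mafk by -0.21 (adjusted p = 0.017), while Cul3 was higher by 0.12 (adjusted p = 0.014). In all, 5 of 10 members passed against Amlexanox (25.9% of all genes), 7 against Tazemetostat (43% of all genes) and 5 against Senicapoc (25.4% of all genes). The call of Bach2 against Senicapoc were lost in 5 of 18 fits without 1 library (adjusted p up to 0.072), that of Mafk in 2 of 18 (up to 0.056), and that of Cul3 with quantile scaling (0.066). The doses differ between compounds, so these are comparisons of the treatments as given.

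Whether a compound acted differently with Tat or with Tat-Cocaine than without was tested for each member. Beside Mafk with Amlexanox, limma called 0 members in the 7 other tests. The 2 for 4OI had 2 members each at an unadjusted p under 0.05, beside 1896 (Tat) and 1428 (Tat-Cocaine) of all 15890 genes. The shares of all genes that passed after adjustment were 0.497% (Tat) and 0.113% (Tat-Cocaine). For Tazemetostat there were 0 and 0 members at an unadjusted p under 0.05, and for Senicapoc 0 and 1, with 0% of all genes passing in these 4. Of all genes, 271 and 2187 had such an unadjusted p for Tazemetostat, and 762 and 2308 for Senicapoc. For Amlexanox with Tat there were 2 members, beside 2895 of all genes. The 4OI effect on Sqstm1 was smaller by 0.28 on Tat (95% confidence interval -0.52 to -0.04, adjusted p = 0.37), and that on Mafg was smaller by 0.37 on Tat-Cocaine (-0.64 to -0.09, adjusted p = 0.38).

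Ordered by mean, the groups of Keap1, Mafg and Sqstm1 ended with the 3 that received 4OI. In Sqstm1 neighbours were apart at 3 places: Tat-Senicapoc (531 ± 6.55 CPM, SD, n = 3) lay below Tat-Amlexanox (564 ± 20.7), Tazemetostat (712 ± 11.1) below Tat-4OI (993 ± 65.2), and Tat-Cocaine-4OI (1050 ± 122) below 4OI (1280 ± 64.4). In Mafg they were apart between Tat-Senicapoc (28.2 ± 0.699 CPM) and Tat-Cocaine-4OI (32.1 ± 1.28) and between Tat-4OI (34.7 ± 1.92) and 4OI (40.7 ± 2.13). In Keap1 the one gap was between Tat-Cocaine-Amlexanox (83.1 ± 4.4 CPM) and Tat-Cocaine-4OI (97 ± 8.66), and 4OI was highest (108 ± 2.19). In the other 7 genes all neighbours overlapped. How many of all genes show such gaps, or stand apart with 4OI in this way, was not counted. Nfe2l2 ran from 113 ± 11.8 CPM with Amlexanox to 216 ± 25.2 with Tat-Cocaine-Tazemetostat, and Maff from 9.32 ± 3.49 with Cocaine to 48.3 ± 4.75 with Tat. Nfe2l1 ran from 188 ± 8.51 with Amlexanox to 249 ± 12.2 with Tat-Cocaine-Tazemetostat.

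Over the 16 group means, Sqstm1 and Keap1 correlated at r = 0.91, Keap1 and Mafg at 0.89, Sqstm1 and Mafg at 0.86, and Maff and Nfe2l2 at 0.86. These are descriptions over groups that share the same treatments. Among 11435 other genes whose group means spanned at least 0.5, those most like Sqstm1 were Ypel5 (r = 0.97), Cat and Gclm (0.96 each), the last 2 genes of peroxide removal and glutathione synthesis. Most like Keap1 were Ypel5 (0.95), Pir (0.94) and the quinone reductase Nqo1 (0.94), and most like Mafg were Rapgef1 (0.97), the cystine transporter Slc7a11 (0.94) and AABR07054319.1 (0.92). Nfe2l2 was most like Shc1, Sf3a2 (0.97 each) and Fam120a (0.97), and Maff most like the kinase Jak2 (0.98), the aryl hydrocarbon receptor Ahr (0.97) and Fgfrl1 (0.97). Mafk was most like Ajuba (0.95), Mif4gd and Crip2 (0.92 each), and Nfe2l1 most like Lrsam1 (0.94), Acaa1a (0.93) and Tmem209 (0.93). Likeness was weaker for Cul3 (Tex15, 0.90, Rasl11a, 0.88, and Dear, 0.87), Bach2 (Pax1, 0.85, and Mmp3, 0.84) and Bach1 (Epb41, 0.82, AABR07008255.1, 0.81, and AABR07033564.2, 0.80).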

How the data were processed

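RNA of 48 cultures in 16 groups of 3 was sequenced from strand-specific polyA libraries, with paired ends. The authors aligned reads with STAR 2.7.2 and assigned them to genes with featureCounts. The submitters' processing notes also name Trim Galore 0.4.5, SAMtools 1.5 and Subread 1.5.3. The build is named as mRatBN7.2 in those notes and as another in the study's methods, so the only coordinates given are those of the RefSeq promoters, on GRCr8. The signal the authors deposited is CPM after TMM normalization (columns sum to 930399 to 1046892), of which 85.0 to 87.3% of values above 0 were whole reads within 0.02 read. Count tests were therefore not run. The deposited group means and the authors' own fold changes and p-values were not used, and no column of another series' samples was found.

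Groups and replicate numbers came from the labels, and no library was left out. Values were analysed as log2(CPM + 0.5), which understates changes of low genes, in R 4.3.3 with limma 3.58.1 (1 mean per group, all 48 libraries, eBayes with trend). Genes with at least 0.5 CPM in 3 libraries were tested, with Benjamini-Hochberg FDR under 0.05 over all 15890 genes in each of 33 comparisons. "Adjusted p" is that value, and all tests were two-sided. The smallest p of an exact permutation test with groups of 3 is 0.1, so none was used. The fit was tested on simulated data. The alternatives were another pseudocount (0.1), no filter or 2 CPM, median ratio or quantile scaling, no trend, the compared groups alone, the paper's 7 groups, the replicate number as a block, and each library left out. Same-numbered libraries deviated together (every correlation over 0.1) in 5 of 16 comparisons of 2 groups: Tat-Cocaine, 4OI, Tazemetostat and Senicapoc against Control, and Amlexanox on Tat. The genes and lists were chosen with earlier results of these data known. All 10 genes are named, with library values in the groups compared for calls between 2 groups, and in some or all groups for calls in an average. Of a list, at most 3 genes with the largest change among those called are named. Genes most alike are the 3 with the highest correlation over group means. A few genes that these rules would name are not reported here.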

Additional observations from a re-analysis of the deposited data

Results flagged for a closer look

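The effect of Amlexanox on Mafk differed between untreated and Tat-Cocaine-treated cultures. The difference of the log2 fold changes was 0.68 (limma, adjusted p = 0.016), from -0.44 in untreated cultures to 0.25 on Tat-Cocaine. It was tested as an interaction over 12 libraries, and fits without 1 of these gave 0.53 to 0.80, with the call lost without Control replicate 3, Tat-Cocaine replicate 2 or Amlexanox replicate 3.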

How the results depend on the processing

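No call of a member reversed. Over 48 calls, other processing settings gave 396 values, of which 375 kept direction and side of the threshold and 21 missed it, and the fits without 1 library gave 750, of which 692 kept both and 58 missed the threshold. The number of members called moved as follows. In the fit to the compared groups alone, which has fewer libraries, it was 1 for Tat (2 as reported) and 0 for Tat-Cocaine, 4OI on Tat-Cocaine, Amlexanox, Tazemetostat pooled over backgrounds, Senicapoc pooled, and Amlexanox with Tat-Cocaine against without. In the fit to 7 groups it was 1 for 4OI on Tat-Cocaine. For Tazemetostat pooled it was 1 with no filter, median ratio, quantile or no trend; the cause was not tested.

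The replicate block gave each number 1 offset over all 16 groups and did not pair the 2 groups compared. With it the number called was 2 for Tat-Cocaine and 1 for Amlexanox on Tat, where same-numbered libraries deviated together. Elsewhere this was not found, or not checked for an average. There the block gave 5 for 4OI on Tat, 2 for Amlexanox, 1 for Amlexanox on Tat-Cocaine, 2 for Senicapoc on Tat and 2 for Amlexanox pooled. It moved the count of all genes called by over 1.5 times in 15 of 33 comparisons.

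Without 1 library the number called ran from 1 to 2 for Tat (2 as reported) and Amlexanox pooled (1 as reported). For 4OI on Tat-Cocaine, with 3 as reported, it also ran from 1 to 2, so that no such fit kept all 3 calls. It ran from 0 to 1 for Cocaine, Tat-Cocaine, Amlexanox, Amlexanox on Tat-Cocaine, Senicapoc pooled, and Amlexanox by Tat and by Tat-Cocaine. It ran from 0 to 2 for Tazemetostat on Tat-Cocaine and cocaine on Tat pooled, and from 0 to 3 for Tazemetostat pooled. All genes called with Tat numbered 3382 as reported, 1252 in the compared groups alone and 2229 in 7 groups, and with 4OI 501, 101 and 221. Counts of all genes moved by over 1.5 times in 20 of 33 comparisons for the compared groups alone and in 6 of 7 for 7 groups, and in 1 to 5 of 33 for each change of pseudocount, filter, scaling or trend.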
